A study of Sus scrofa with 24 samples.

Results

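Liver RNA was compared between pig lines of high and low residual feed intake (RFI) held at the same feeding level, in 16 of the 24 pigs of the series. The samples are those titled as restricted high RFI and as low RFI, with 8 pigs and 1 array per pig in each group. Low RFI pigs (strain RFIneg) were fed ad libitum. Restricted high RFI pigs (strain RFIplR) belonged to the line selected for high RFI and received the amount eaten by the low RFI pigs. All were sampled at 115 kg body weight, a label that the remaining 8 pigs, of the high line fed ad libitum (strain RFIpl), share. Since the low line ate freely and the high line was limited, line and the way of feeding differ together between the 8 and 8 pigs and cannot be told apart in this comparison. The labels give no age, sex or litter, and pigs within a line may be related.

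RFI is the feed an animal eats beyond the amount predicted from its growth and maintenance, so a low value marks an efficient animal. The liver takes up the amino acids, sugar and fat that reach it from the gut. It disposes of nitrogen through the urea cycle, releases glucose between meals, and clears foreign compounds through cytochrome P450 enzymes. Arginase 1 makes urea and ornithine, and ornithine decarboxylase turns ornithine into polyamines, small charged molecules that cells need for growth. Antizymes bind and inhibit ornithine decarboxylase, which keeps polyamine levels in check.

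The arrays read each transcript with 60-base probes, and the first 30 bases are shown for the probes on which the main results rest. OAZ3 and ARG1 open the account of the higher genes and ZAR1L that of the lower genes. A_72_P205617 and A_72_P115846 had the largest rises among unnamed probes that passed the test. S100A4 is shown beside the unnamed probe A_72_P505367, with the shared bases in capitals.
OAZ3 (A_72_P437459): atgtggactccgtgtttgtgaatttccaaa
ARG1 (A_72_P057696): actgtatcaattccctcttggtgtgaaaat
ZAR1L (A_72_P671850): cctggtgttggaaaatggattaggcttttg
S100A4 (A_72_P143901): cacagtGCCTCACCGTGGCTCTTCCTGACC
unnamed (A_72_P505367): GCCTCACCGTGGCTCTTCCTGACCTGATCA
unnamed (A_72_P205617): ttccctcttgttttagctgttacacataca
unnamed (A_72_P115846): aatatgtgtaaaaagagtgatggaaataga
The S100A4 probe and A_72_P505367 share 54 bases in all, so they read the same transcript stretch. The 2 measured ZAR1L probes share 32 bases.

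Each level below is the log2 of the probe's signal relative to the 75th percentile of its own array, so 0 marks that percentile and 1 unit is a doubling. Of 28817 probes with signal above background, 79 (0.274%) passed an adjusted p of 0.05 in limma. Of these, 46 (0.16%) were higher and 33 (0.115%) lower in restricted high RFI pigs, and 34 differed at least 2-fold. With no adjustment, 3754 probes (13%) had a p below 0.05, 6.29% of all probes being higher and 6.74% lower, where 1441 probes would be expected without any difference. Only 24 of the 79 probes carried a symbol, and these stood for 20 genes, 12 higher and 8 lower. The count depended on single pigs and on the signal correction. It ranged from 37 to 148 as each of the 16 pigs was left out. It fell to 49, 52 and 37 without low RFI pigs 3, 7 and 8, and to 41, 39 and 45 without restricted pigs 2, 7 and 8. It rose to 148 and 132 without restricted pigs 1 and 5. With the normexp background correction 15 probes passed, and 23 passed without slide 3, the slide with the fewest spots above background.

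**Figure D1:**
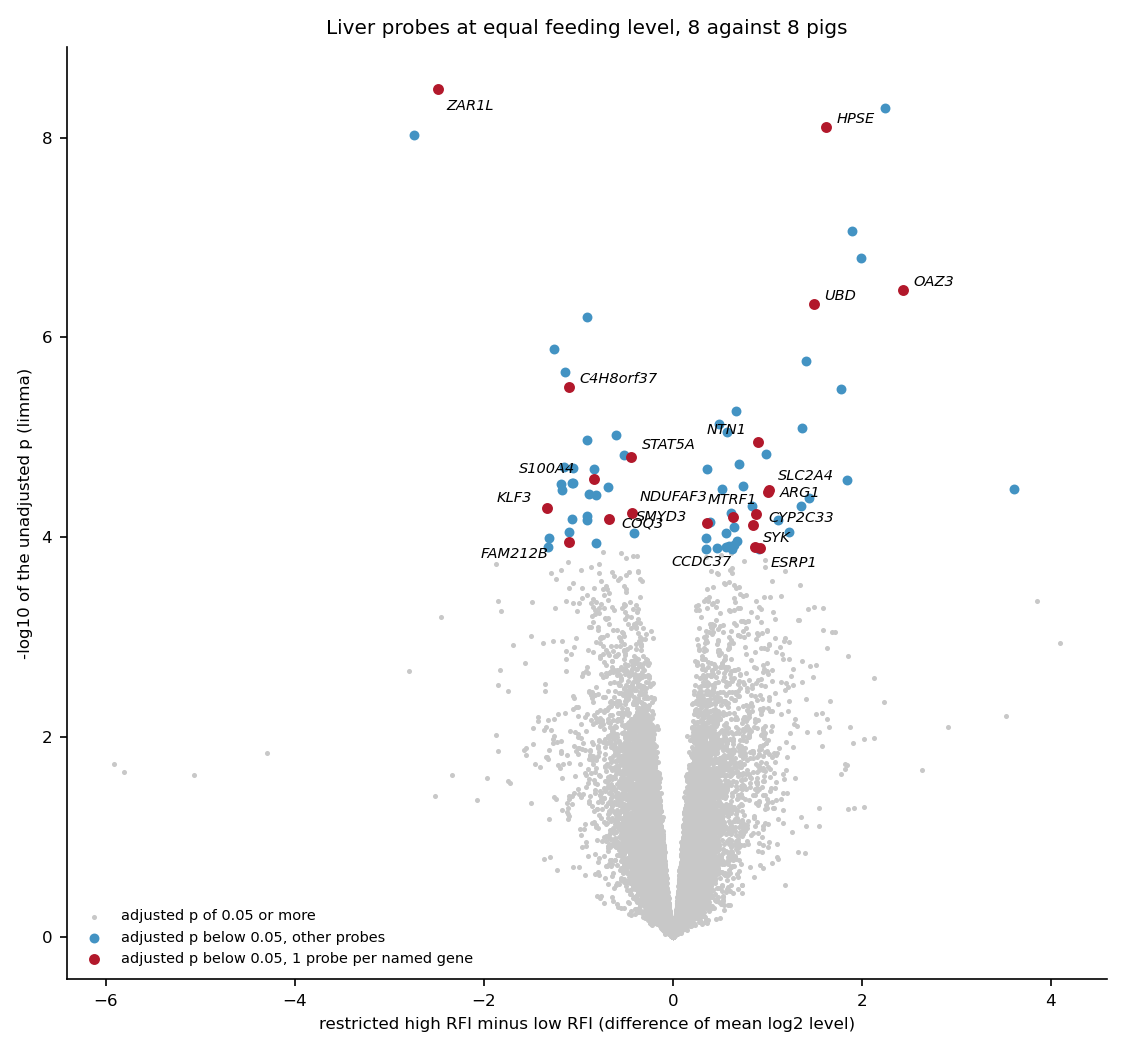
Each point is a probe, placed by the difference of mean log2 level between restricted high RFI and low RFI pigs (x axis) and by -log10 of its unadjusted p from limma (y axis). The 79 probes past an adjusted p of 0.05 are coloured, with 20 genes labelled at their probe with the smallest p. ZAR1L lies farthest to the left among the labelled genes and OAZ3 farthest to the right.

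Array quality was close between the groups. Spots well above background made up 67.4% ± 2.81 in restricted and 67.8% ± 2.77 in low RFI pigs (SD, n = 8 each, two-sided exact permutation test p = 0.775). The 6 slides each held both groups, and arrays were scanned on 2 days. On both days, all 79 probes differed in the same direction as over all pigs, which their choice from these arrays largely fixes. With slide as a block 53 probes passed, among them 9 of the 20 named genes: OAZ3, HPSE, UBD, NTN1, CYP2C33, SYK, ZAR1L, C4H8orf37 and STAT5A. Without slide 3, OAZ3, HPSE, UBD, NTN1 and ZAR1L passed. Under normexp 6 passed, namely OAZ3, UBD, NTN1, ZAR1L, FAM212B and C4H8orf37. The main fit took its spread from all 24 arrays, and many calls rested on that. Fitted to the 16 arrays alone, 37 probes passed, 31 of them among the 79. Of the 20 named genes, 9 passed there: OAZ3, HPSE, UBD, SLC2A4, NTN1, ZAR1L, KLF3, C4H8orf37 and STAT5A.

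The antizyme gene OAZ3 had the largest rise of any named gene. Its low RFI pigs lay between -2.86 and 0.23 with a median of -2.33. Its restricted high RFI pigs lay between -0.53 and 1.06 with a median of 0.62. The overlap came from a single animal, low RFI pig 7 at 0.23, while the other low RFI pigs lay at -2.02 or below. The difference was 2.44 ± 0.35 (SE, n = 8 per group, limma adjusted p = 0.00137), a 5.41-fold rise. Without that pig it was 2.76 ± 0.26, necessarily wider since the pig lay on the restricted side. A second OAZ3 probe, A_72_P619999, rose by 1.37 ± 0.24 (limma adjusted p = 0.0136). At the first probe, A_72_P437459, the difference was 1.78 on the first scan day and 3.12 on the second, and above 0 on 5 of 6 slides. High RFI pigs fed ad libitum ranged from -0.39 to 0.88, at a mean of 0.31 ± 0.54 against 0.39 ± 0.68 in the restricted pigs (SD, n = 8 each). OAZ3 is known as the antizyme of the testis, whereas OAZ1 and OAZ2 are made in most tissues. Their differences were 0.02 ± 0.07 and 0.10 ± 0.08 (SE), with limma adjusted p of 0.944 and 0.643.

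ARG1, the enzyme that splits arginine into urea and ornithine, was 2.03-fold higher in restricted high RFI pigs. Low RFI pigs lay between 5.64 and 6.68 with a median of 5.84, and restricted pigs between 6.25 and 7.64 with a median of 6.97. The groups overlapped through low RFI pig 6 at 6.68, since the other low RFI pigs did not exceed 6.06. The difference was 1.02 ± 0.20 (SE, limma adjusted p = 0.0244). It was above 0 on all 6 slides, which the choice of ARG1 from these arrays largely fixes. All 5 ARG1 probes were higher, by 0.93 to 1.44, and 3 of them passed the threshold. The call was narrow. Fitted with slides as blocks, ARG1 differed by 1.04 at an adjusted p of 0.0597. The adjusted p rose to between 0.051 and 0.0605 without low RFI pigs 1, 3 or 7 or restricted pigs 2, 7 or 8, at differences of 0.92 to 1.0. High RFI pigs fed ad libitum had a mean of 6.66 ± 0.42, between the 5.94 ± 0.33 of low RFI and the 6.96 ± 0.49 of restricted pigs (SD, n = 8 each).

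The list of polyamine genes put these findings side by side. Of its 11 measured members 9 were above 0, with a median difference of 0.136 against -0.009 over 4376 named genes. OAZ3 and ARG1 passed the threshold, as did 0.274% of all probes, but the list was drawn up with these calls known, so their count is no support for it. Ornithine decarboxylase, ODC1, differed by 0.47 ± 0.14 (SE, limma adjusted p = 0.142). ARG2, the mitochondrial arginase, differed by 0.81 ± 0.33 (adjusted p = 0.294), and AMD1, which supplies the aminopropyl groups of spermidine and spermine, by 0.25 ± 0.14 (adjusted p = 0.462). The acetyltransferase genes SAT1 and SAT2, which start polyamine breakdown, had differences of -0.07 and -0.08. In the urea cycle, 3 genes were measured and ARG1 alone passed, with a list median of -0.099 that was 0.047 under normexp. NAGS, which makes the activator of the cycle, differed by -0.40 ± 0.18 (adjusted p = 0.345), and OTC, which joins ornithine to carbamoyl phosphate, by -0.10 ± 0.08 (adjusted p = 0.645).

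**Figure D2:**
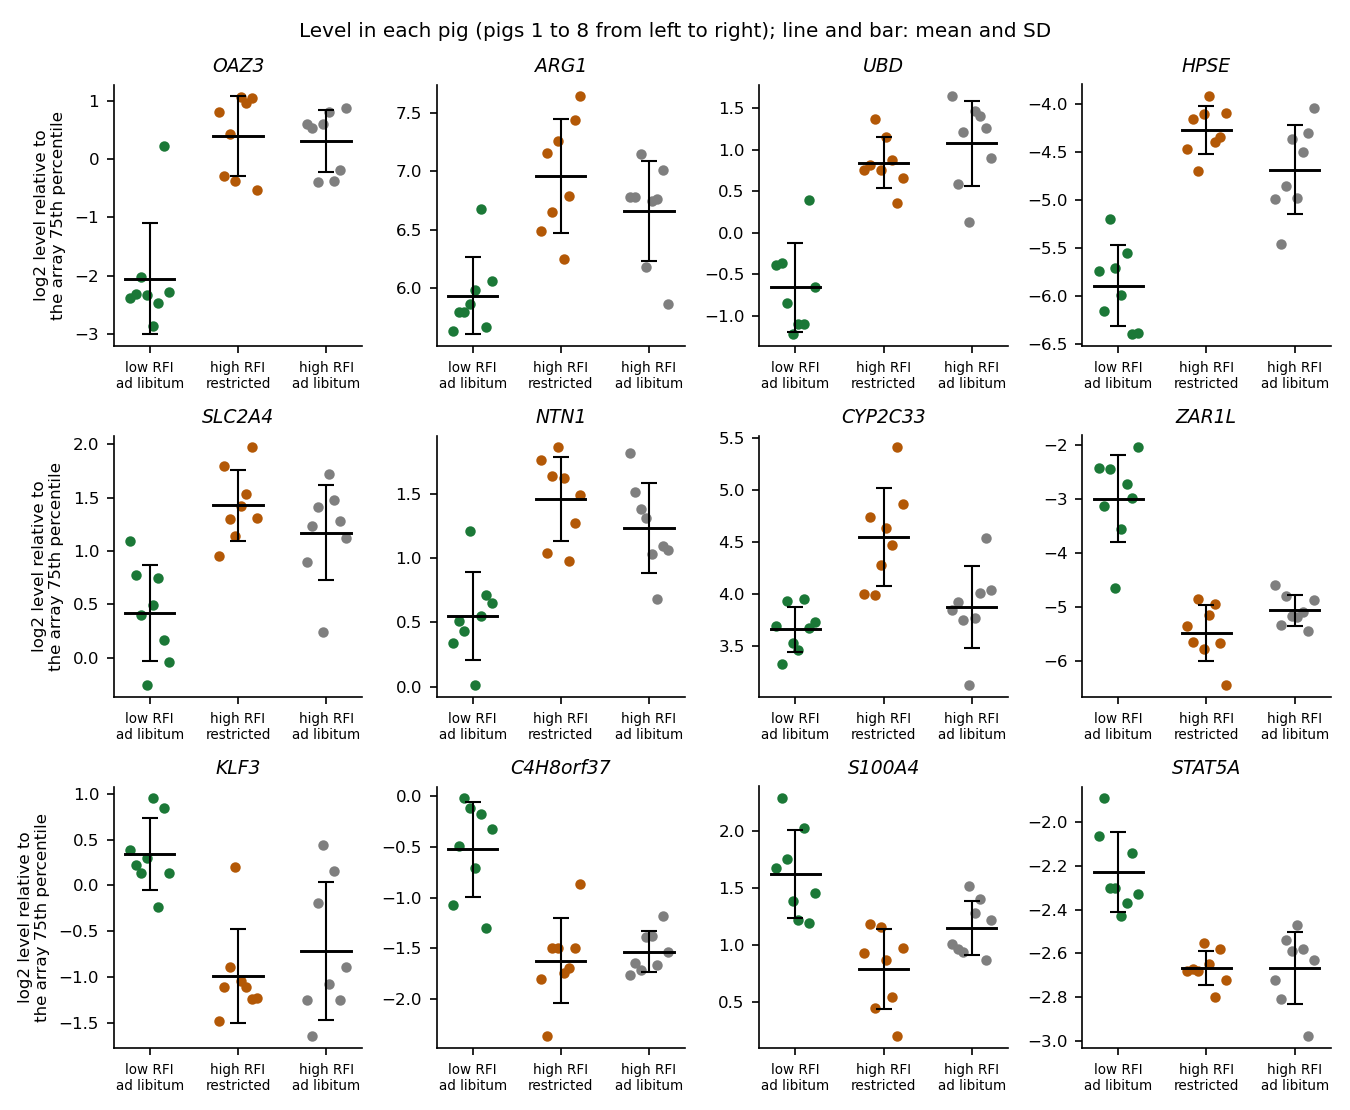
Log2 level relative to the array's 75th percentile (y axis) in each pig, for 12 genes past the threshold, in low RFI, restricted high RFI and ad libitum high RFI pigs (8 points each, pigs 1 to 8 from left to right). Lines and bars are the mean and SD. Low RFI pig 7 stands with the high line in OAZ3, at 0.23, and restricted pig 4 with the low line in KLF3, at 0.20.

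UBD, a ubiquitin-like protein (FAT10) that marks proteins for the proteasome and is induced by inflammatory signals, rose 2.82-fold. Low RFI pigs ranged from -1.22 to 0.39 with a median of -0.75, and restricted high RFI pigs from 0.36 to 1.37 with a median of 0.79. Low RFI pig 7 at 0.39 and restricted pig 7 at 0.36 crossed by a narrow margin. The difference was 1.5 ± 0.22 (SE, limma adjusted p = 0.00167). It was 1.13 on the first scan day and 1.79 on the second, and it passed whichever pig was left out, with adjusted p of at most 0.00599. The list of ubiquitin-like genes and their enzymes, UBD included, had a median of 0.083. UBD alone passed among 8 measured, beside 0.274% of all probes, in a list chosen with its call known. Of the others, ISG15 differed by 0.49 ± 0.63 (adjusted p = 0.788) and SUMO2 by -0.15 ± 0.06 (adjusted p = 0.302). The interferon response list, 25 of 32 members above 0, had no member past the threshold and a median of 0.069, which was -0.091 on the first scan day and 0.193 on the second. None of those 32 had an unadjusted p below 0.05 in limma.

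HPSE encodes heparanase, which cuts the heparan sulphate chains of the extracellular matrix. Its probe was dim. No low RFI pig (0 of 8) but every restricted pig (8 of 8) showed it well above background, with levels from -6.40 to -5.20 and from -4.70 to -3.92. The groups did not overlap, as was the case for 25 of the 79 probes past the threshold and for 40 (0.139%) of all probes tested. The HPSE probe was kept only through the restricted pigs, the higher group, so the gap and the call depend partly on that filter. Another HPSE probe was too dim to be kept. The difference was 1.62 ± 0.19 (SE, limma adjusted p = 6.81e-05), with the low RFI values taken as they were. With these raised to at least the lowest signal still above background on their array, HPSE was 1.96-fold higher in restricted pigs. That value was not tested. Under normexp its difference was -0.0661 ± 0.24 (SE, limma adjusted p = 0.874), near 0, so the rise rested on the signal correction. Among the other 11 measured genes of heparan sulphate and matrix turnover none passed, the list median was -0.022 (0.107 on the first scan day), and EXT1, which builds heparan sulphate, differed by 0.21 ± 0.11 (adjusted p = 0.426).

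SYK and ESRP1 were dim as well. The called probe of each was kept only through the restricted pigs, the higher group, so both calls depend partly on that filter. SYK, a tyrosine kinase of immune receptors, lay between -5.87 and -4.33 in low RFI and between -4.75 and -3.92 in restricted pigs, a difference of 0.85 ± 0.18 (SE, limma adjusted p = 0.0369). In 3 of 8 low RFI and 6 of 8 restricted pigs it stood well above background. Its brighter probe, A_72_P232627, differed by 0.19 ± 0.10 (adjusted p = 0.445). ESRP1, a splicing regulator of epithelial cells, differed by 0.93 ± 0.20 (adjusted p = 0.0484), with 2 of 8 low RFI and 6 of 8 restricted pigs above background. A second ESRP1 probe differed by 0.87 ± 0.27 (adjusted p = 0.162). Both genes turned to -0.18 under normexp, with SE of 0.23 for SYK and 0.24 for ESRP1. SYK missed the threshold without any of low RFI pigs 2, 3, 6, 7 or 8 or restricted pigs 2, 3, 4, 6, 7 or 8, with adjusted p of 0.0508 to 0.0708. ESRP1 missed it, at 0.0521 to 0.11, without any of low RFI pigs 1, 2, 3, 7 or 8 or any restricted pig. Of 8 genes in the SYK and immune receptor list, each by its brightest probe, none had an unadjusted p below 0.05 in limma, and the median was 0.034 (-0.1 on the second scan day).

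SLC2A4 and NTN1 are best known from other tissues. SLC2A4 encodes GLUT4, the insulin-responsive glucose transporter of muscle and fat. It ranged from -0.26 to 1.09 in low RFI pigs (median 0.45) and from 0.95 to 1.97 in restricted pigs (median 1.37). Low RFI pig 1, at 1.09, was the single low RFI pig inside the restricted range. The difference was 1.01 ± 0.20 (SE, limma adjusted p = 0.0248). The 2 other SLC2A4 probes, both dimmer, differed by 0.07 ± 0.20 and 0.09 ± 0.15, so the rise was seen by 1 of 3 probes. With slide as a block the adjusted p was 0.059, and without low RFI pigs 7 or 8 or restricted pigs 2 or 7 it was 0.051 to 0.0631. In the insulin signalling list none of 13 members passed and the median was 0.011 (-0.014 on the second scan day). PRKAB1, a subunit of AMP-activated kinase, differed by -0.36 ± 0.13 (adjusted p = 0.23).

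NTN1 encodes netrin 1, a guidance cue of axons and vessels. Low RFI pigs ranged from 0.01 to 1.21 with a median of 0.53 and restricted pigs from 0.98 to 1.86 with a median of 1.56. Of the low RFI pigs, pig 4 at 1.21 reached the restricted range, and the next highest lay at 0.71. The difference was 0.90 ± 0.16 (SE, limma adjusted p = 0.0154), 1.07 and 0.84 on the first and second scan day. It passed with each pig left out, at adjusted p of 0.0347 or less. The other NTN1 probe differed by 0.28 ± 0.12 (adjusted p = 0.294). Of 3 other axon guidance genes measured, NRP1, UNC5B and EFNA1, none passed and differences lay between -0.16 and 0.03.

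CYP2C33, a cytochrome P450 of the drug-metabolising 2C family, was higher at each of its 6 probes. At probe A_72_P542129, low RFI pigs lay between 3.33 and 3.95 and restricted pigs between 3.99 and 5.41, without overlap. The difference was 0.88 ± 0.18 (SE, limma adjusted p = 0.0337). The other 5 probes differed by 0.36 to 0.60, each with an unadjusted p below 0.05 and an adjusted p of 0.107 or more. Probes of the 2C family can bind related transcripts, and the share of each was not tested. In ad libitum high RFI pigs the mean at A_72_P542129 was 3.87 ± 0.39 against 3.66 ± 0.22 in low RFI and 4.55 ± 0.48 in restricted pigs (SD, n = 8 each). The differences, which share arrays, were 0.67 ± 0.18 for restricted minus ad libitum high RFI (adjusted p = 0.69) and 0.21 ± 0.18 for ad libitum high minus low RFI (adjusted p = 0.759). The call was lost, at adjusted p of 0.0533 to 0.0773, without low RFI pigs 1, 2, 5, 7 or 8 or restricted pigs 2, 7 or 8. Across 18 P450 genes by their brightest probes 12 were above 0 and none passed, with a median of 0.121. CYP2D25 differed by -0.34 ± 0.10 (adjusted p = 0.15), CYP3A29 by 0.54 ± 0.18 (adjusted p = 0.209) and CYP2B22 by -0.99 ± 0.37 (adjusted p = 0.239).

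**Figure D3:**
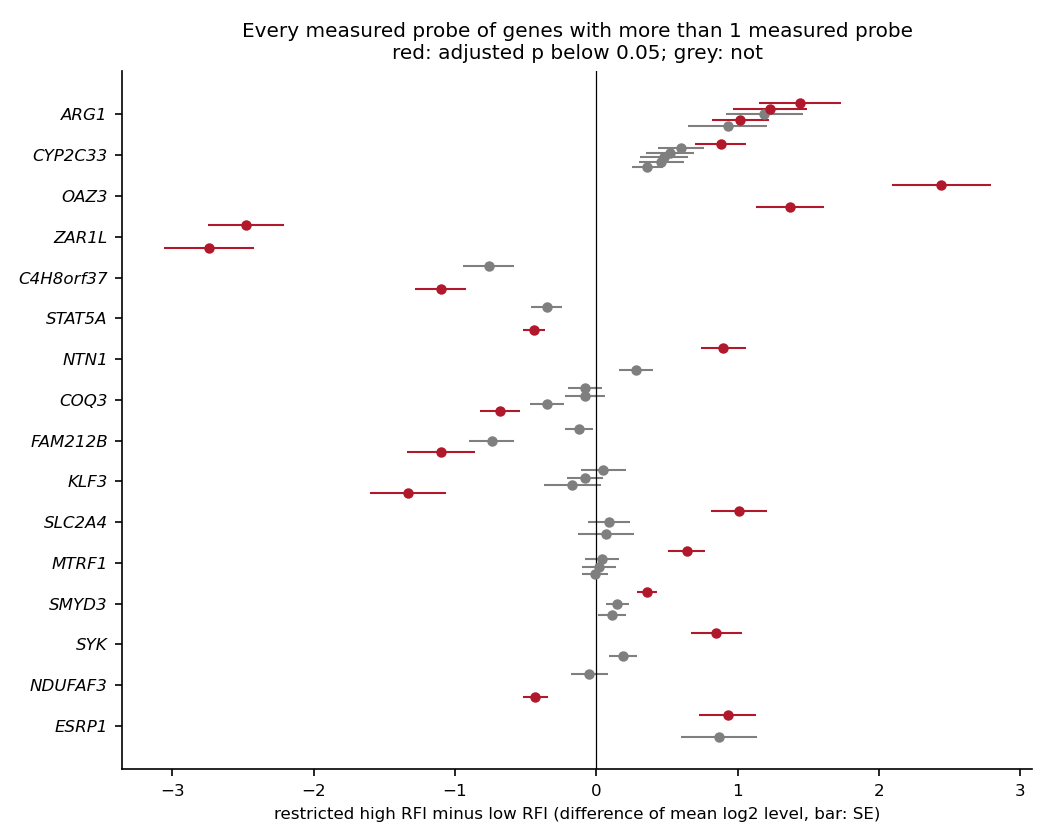
Difference of mean log2 level between restricted high RFI and low RFI pigs (x axis, bars are the SE) for every measured probe of 16 genes, 1 point per probe. All 5 ARG1 probes and all 6 CYP2C33 probes lie above 0, whereas KLF3, SLC2A4 and MTRF1 each have 1 red probe beside others near 0.

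The remaining higher genes had smaller differences or single-probe calls. CCDC37, a coiled-coil protein of cilia, rose by 0.87 ± 0.19 (SE, limma adjusted p = 0.0484), from a median of -2.58 to -1.68. Its groups overlapped, with restricted pigs 1 and 3, at -2.36 and -2.09, inside the low RFI range. MTRF1, a release factor of mitochondrial translation, rose by 0.64 ± 0.13 (adjusted p = 0.0346), and low RFI pigs, up to -1.92, did not overlap restricted pigs, from -1.80. Its 3 other probes, all brighter, differed by -0.01 to 0.04. SMYD3, a lysine methyltransferase, rose by 0.36 ± 0.07 (adjusted p = 0.0358), with low RFI pigs at -0.67 or below and restricted pigs at -0.64 or above. Its other probes differed by 0.15 ± 0.08 and 0.11 ± 0.10. Each of these 3 calls was lost without some pigs: 11 pigs for CCDC37 (adjusted p up to 0.107), 8 for MTRF1 (up to 0.0681) and 9 for SMYD3 (up to 0.0768). Restricted pigs 2, 4, 7 and 8 and low RFI pigs 6 and 8 were among them for all 3 genes. The others were low RFI pigs 1, 2, 4, 5 and 7 for CCDC37, low RFI pigs 2 and 3 for MTRF1, and low RFI pigs 1 and 3 and restricted pig 6 for SMYD3.

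ZAR1L, a relative of the oocyte RNA-binding protein ZAR1, had the largest fall of any named gene. Low RFI pigs lay between -4.64 and -2.05 with a median of -2.85, and restricted high RFI pigs between -6.45 and -4.85 with a median of -5.50. The groups did not overlap. The difference was -2.48 ± 0.27 (SE, limma adjusted p = 6.81e-05), and the other measured probe, which shares bases with it, differed by -2.74 ± 0.32. At that other probe the groups overlapped, since low RFI pig 4 lay at -5.31 and restricted pigs reached -5.18. All low RFI pigs (8 of 8) showed ZAR1L well above background but only 1 of 8 restricted pigs did, so the restricted level sits at the edge of detection. ZAR1L passed with each pig left out and under normexp, where the difference was smaller, at -1.0 ± 0.19. Both probes were kept only through the low RFI pigs, the higher group. These alternatives used the same kept probes, so passing in them does not remove that dependence. Ad libitum high RFI pigs lay between -5.45 and -4.60. Of 3 other oocyte and germ cell genes measured, GDF9, BMP15 and PRM1, none passed, at differences of -0.18, 0.30 and -0.19.

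C4H8orf37, named for human C8orf37, a gene needed by photoreceptor cells, fell by 1.10 ± 0.18 (SE, limma adjusted p = 0.00674). Low RFI pigs ranged from -1.30 to -0.02 and restricted pigs from -2.37 to -0.87. Low RFI pigs 1 and 7, at -1.07 and -1.30, lay within the restricted range, and restricted pig 8, at -0.87, within that of the low line. Its other probe differed by -0.76 ± 0.18 (adjusted p = 0.0669). Without slide 3 the gene missed the threshold. C4H8orf37 and ESRP1 lie on the same chromosome with 8 annotated genes between them, in the gene order of RefSeq on Sscrofa11.1. ESRP1 differed in the other direction, except under normexp, where its difference was -0.18 ± 0.24 (SE).

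KLF3, a Krüppel-like repressor of transcription, fell by 1.33 ± 0.27 (SE, limma adjusted p = 0.0312) at 1 of its 4 probes. There, low RFI pigs ranged from -0.24 to 0.95 and restricted pigs from -1.48 to 0.20. Restricted pig 4, at 0.20, sat among the low RFI pigs while the other 7 lay at -0.89 or below. Without it the difference was -1.5 ± 0.25, necessarily wider since this pig lay on the low RFI side. The other 3 probes differed by -0.17 to 0.05, so the 4 probes disagreed. The call was lost, at adjusted p of 0.051 to 0.0683, without low RFI pigs 1, 5, 7 or 8 or restricted pigs 2, 6, 7 or 8. Of the ad libitum high RFI pigs, pigs 4 and 6 lay at 0.44 and 0.16 and pig 3 at -0.19, with the others at -0.89 or below.

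FAM212B, which encodes an inhibitor of a p21-activated kinase, fell by 1.10 ± 0.24 (SE, limma adjusted p = 0.0469), from a median of -1.52 to -2.98. Low RFI pigs 4 and 5, at -2.53 and -2.31, reached the restricted range. A second probe differed by -0.74 ± 0.16 (adjusted p = 0.0508) and the third by -0.12 ± 0.10. The call was lost for 11 of 16 pigs left out, at adjusted p of 0.0704 to 0.101 (low RFI pigs 1, 2, 3, 6, 7 and 8 and restricted pigs 2, 4, 6, 7 and 8).

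S100A4, a calcium-binding protein of fibroblasts and motile cells, fell by 0.84 ± 0.16 (SE, limma adjusted p = 0.0244). Low RFI pigs lay between 1.20 and 2.29 (median 1.57) and restricted pigs between 0.20 and 1.19 (median 0.90), without overlap. The unnamed probe that shares 54 bases with it fell by 0.91 ± 0.16 (adjusted p = 0.0152). There the groups did overlap, with low RFI pigs from 1.27 and restricted pigs up to 1.32. Without restricted pig 7 the difference was -0.75 and the adjusted p 0.0508. Fitted with slides as blocks it was -0.85, at an adjusted p of 0.0559. On the first scan day the difference was -0.40 and on the second -1.28. Ad libitum high RFI pigs averaged 1.15 ± 0.24 (SD, n = 8). Among 10 measured S100 genes 8 were below 0, and the median was -0.298. S100A4 alone passed, beside 0.274% of all probes, in a list chosen with its call known. S100A8, S100A9 and S100A12, which neutrophils carry, differed by -0.46, -0.38 and -0.32 with SE of 0.35 to 0.47.

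STAT5A carries signals of growth hormone and prolactin to the nucleus. Low RFI pigs lay between -2.43 and -1.89 and restricted pigs, with a narrow spread, between -2.80 and -2.55, without overlap. The fall was 0.44 ± 0.08 on the log2 scale (SE, limma adjusted p = 0.0189), and the other measured probe differed by -0.35 ± 0.11 (adjusted p = 0.155). The call held with each pig left out and was lost under several alternatives, among them normexp, leaving out slide 3 and each scan day alone. Of 21 genes of the growth hormone and IGF axis STAT5A alone passed, and the median was 0.022. The list was chosen with that call known, and 0.274% of all probes passed. STAT3 differed by 0.89 ± 0.23 (adjusted p = 0.084), IGFBP4 by 0.34 ± 0.10 (adjusted p = 0.136) and IGFBP6 by -0.46 ± 0.20 (adjusted p = 0.332). STAT5B, which shares much of its sequence with STAT5A, differed by -0.09 ± 0.10 (adjusted p = 0.746).

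COQ3 and NDUFAF3 serve the respiratory chain, the former in making coenzyme Q and the latter in assembling complex I. COQ3 fell by 0.68 ± 0.14 (SE, limma adjusted p = 0.0349) at 1 probe, from a median of 2.31 to 1.76. Restricted pigs 3 and 6, at 2.02 and 2.16, reached the low RFI range, which starts at 2.02. Its 3 other probes differed by -0.35 ± 0.12, -0.08 ± 0.14 and -0.08 ± 0.12. NDUFAF3 fell by 0.43 ± 0.09 (adjusted p = 0.0337) at a dim probe, and restricted pig 1 at -4.21 was the highest of its group, within the low RFI range. Its brighter probe differed by -0.05 ± 0.13. Both calls were lost for 8 of 16 pigs left out, at adjusted p of up to 0.0771 for COQ3 and 0.0773 for NDUFAF3. Those pigs were low RFI 1, 3, 6, 7 and 8 and restricted 2, 4 and 7 for COQ3, and low RFI 2, 3 and 6 and restricted 2, 4, 6, 7 and 8 for NDUFAF3. In the respiratory chain list, 21 of 25 genes were above 0 and none passed, with a median of 0.069. The list holds subunits of the chain and of ATP synthase and the uncoupling protein UCP2, which differed by -0.12 ± 0.10.

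**Figure D4:**
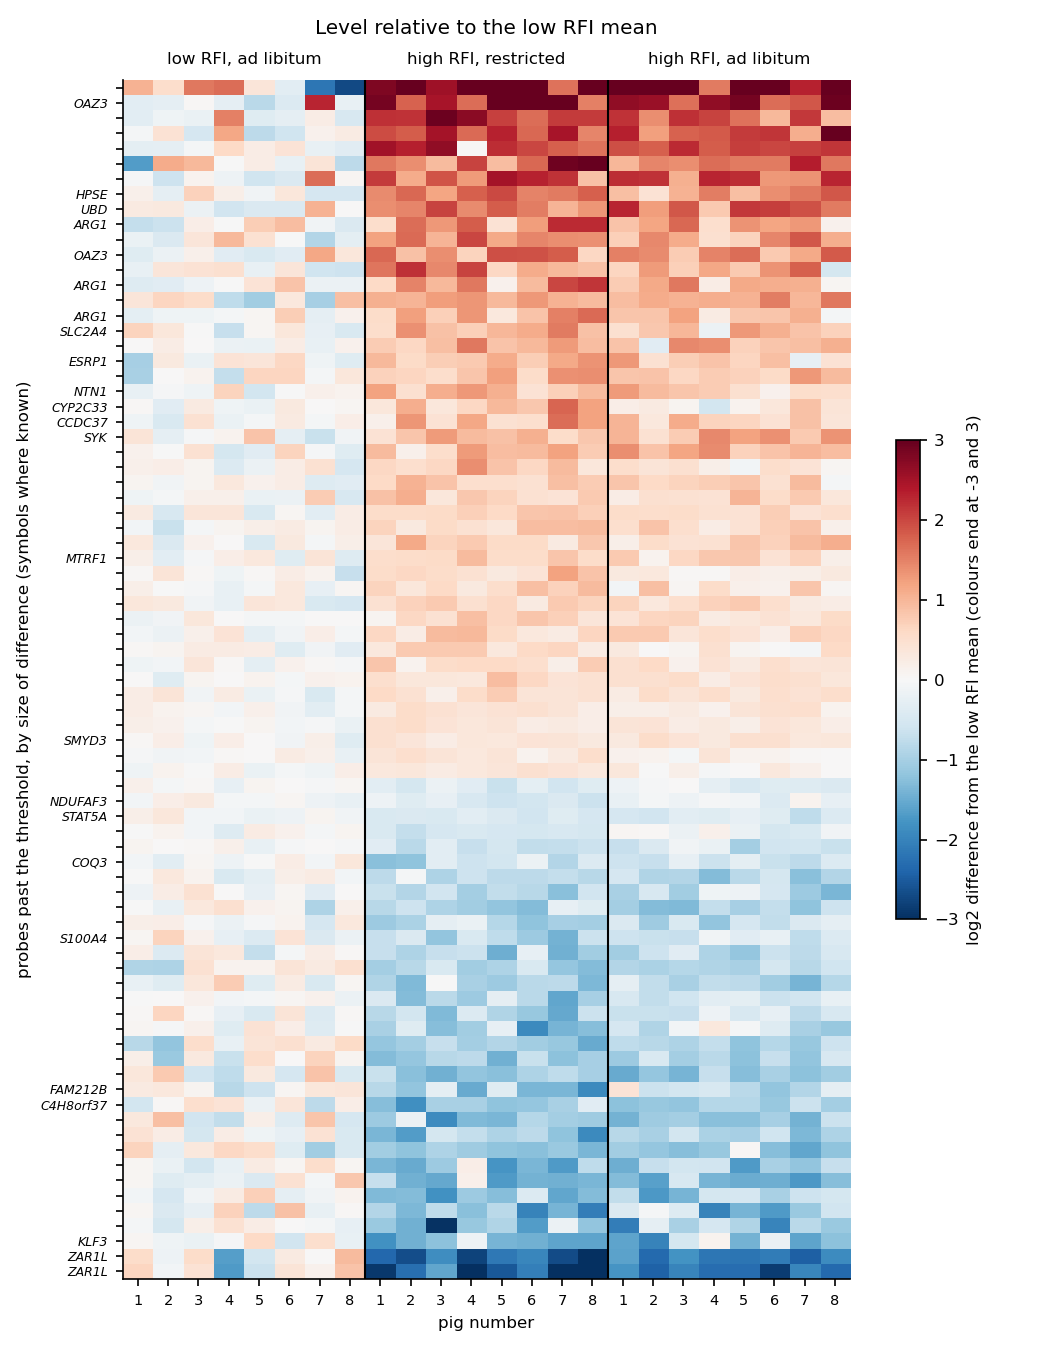
Level of the 79 probes past the threshold (rows, ordered by difference, with symbols where known) in each of the 24 pigs (columns), as the log2 difference from the low RFI mean. Red is higher and blue lower. Low RFI pig 4 lay nearer the restricted mean in 18 of the 79 probes, the most of any pig, and low RFI pig 8 lay nearer it in 2.

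Of the 55 unnamed probes past the threshold, A_72_P205617, described as a clone from liver, had the largest difference, 3.61 ± 0.71 (SE, limma adjusted p = 0.0244). Low RFI pigs ranged from -5.44 to -1.05 and restricted pigs from -1.10 to 2.58, and they met only at restricted pig 7 (-1.10) and low RFI pig 4 (-1.05). Its call was lost without low RFI pigs 7 or 8 or restricted pigs 2 or 8, at adjusted p of 0.051 to 0.0619. A_72_P115846 differed by 2.24 ± 0.25 (adjusted p = 6.81e-05). There, low RFI pigs lay at -2.75 to -0.76 and restricted pigs at -0.61 to 0.66, without overlap, and low RFI pig 4 was the highest of its group. A_72_P310053 differed by 1.99 ± 0.27 (adjusted p = 0.000771), again without overlap. The annotation of both reads Unknown, as for 20 of the 55.

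Among unnamed probes that were lower, A_72_P487754 differed by -1.32 ± 0.29 (SE, limma adjusted p = 0.0484), A_72_P083771 by -1.31 ± 0.28 (adjusted p = 0.0449) and A_72_P234677 by -1.26 ± 0.20 (adjusted p = 0.0038). The first is described as a polypeptide N-acetylgalactosaminyltransferase-like gene, an enzyme family that starts O-linked sugar chains. It stood above background in 8 of 8 low RFI and 2 of 8 restricted pigs, so it was kept only through the low RFI pigs, the higher group. It missed the threshold, at adjusted p of 0.0527 to 0.0907, without any 1 of 12 pigs, which are all but low RFI pig 2 and restricted pigs 1, 5 and 7. A_72_P083771 missed it, at 0.058 to 0.1, without any 1 of 11 (low RFI pigs 1, 3, 4, 6, 7 and 8 and restricted pigs 2, 4, 6, 7 and 8). A_72_P234677 passed with each pig left out.

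A further unnamed probe, chosen after its values were seen, was described as pig glutathione S-transferase mu 2, an enzyme that joins glutathione to reactive compounds. A_72_P402778 lay between -3.72 and -2.78 in low RFI pigs and between -1.75 and -0.70 in 7 of 8 restricted pigs, whereas restricted pig 4 was at -3.34. The difference was 1.90 ± 0.25 (SE, limma adjusted p = 0.000497), and ad libitum high RFI pigs lay between -1.58 and -1.13. Restricted pig 4 also stood with the low line at KLF3 and at the unnamed probes A_72_P341528 (3.03) and A_72_P032446 (3.21), where the other restricted pigs did not exceed 2.19 and 2.23. Yet over the 79 probes restricted pig 4 lay nearer the low RFI mean in only 8, within the 6 to 10 of the other restricted pigs. A_72_P008606, likewise picked after its values were seen, differed by 1.78 ± 0.30 (adjusted p = 0.00674). As for OAZ3, low RFI pig 7 stood out from its group there, at -1.34 against -2.92 or below.

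The lists of amino acid breakdown, gluconeogenesis, and glycolysis and glycogen were mostly above 0 without a member past the threshold. In amino acid breakdown 14 of 18 genes were above 0, with a median of 0.199, and 5 had an unadjusted p below 0.05, against 13% of all probes. They included GOT2, the mitochondrial aspartate aminotransferase (0.33 ± 0.12), TDO2, the first enzyme of tryptophan breakdown (0.26 ± 0.10), and CTH, which makes cysteine (0.43 ± 0.16), with adjusted p of 0.236, 0.236 and 0.237. In gluconeogenesis 8 of 11 were above 0, with a median of 0.237. GOT1 and MDH1, which move reducing power and carbon between mitochondria and cytosol, differed by 0.39 ± 0.12 and 0.32 ± 0.11 (adjusted p = 0.165 and 0.193). G6PC, the final step of glucose release, differed by 1.16 ± 0.52 (adjusted p = 0.341). In glycolysis and glycogen 8 of 10 were above 0, with a median of 0.095 that was -0.042 on the second scan day. There PPP1R3C, which targets a phosphatase to glycogen, differed by -1.32 ± 0.45 (adjusted p = 0.198). Fatty acid synthesis had 8 of 13 above 0 and a median of 0.083. There, malic enzyme ME1 differed by 0.79 ± 0.28 (adjusted p = 0.224) and the desaturase FADS2 by -0.50 ± 0.18 (adjusted p = 0.232).

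Chaperone genes gave the largest list medians in this direction. In the unfolded protein response 11 of 12 genes were above 0, 7 had an unadjusted p below 0.05, against 13% of all probes, and none passed in limma, with a median of 0.256. HSPA5, the chaperone BiP of the endoplasmic reticulum, differed by 0.54 ± 0.15 (SE, adjusted p = 0.12). DNAJB11, its cochaperone, differed by 0.40 ± 0.13 (adjusted p = 0.171), and CALR, which folds glycoproteins, by 0.36 ± 0.12 (adjusted p = 0.191). In contrast, the sensors ATF6 and EIF2AK3 and the stress factor DDIT3 differed by 0.02, 0.05 and -0.09. In cytosolic heat shock 8 of 9 were above 0, with a median of 0.342, and BAG3, a cochaperone of HSP70, differed by 0.94 ± 0.28 (adjusted p = 0.138). The medians of these chaperone, amino acid and gluconeogenesis lists were above 0 under normexp, quantile and median scaling, and on each scan day. For restricted minus ad libitum high RFI pigs, medians were 0.219 (unfolded protein response), 0.009 (heat shock), 0.117 (amino acid breakdown) and 0.118 (gluconeogenesis). For ad libitum high minus low RFI pigs they were, in the same order, 0.035, 0.333, 0.042 and -0.013. These comparisons share arrays, and their values are given side by side only.

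**Figure D5:**
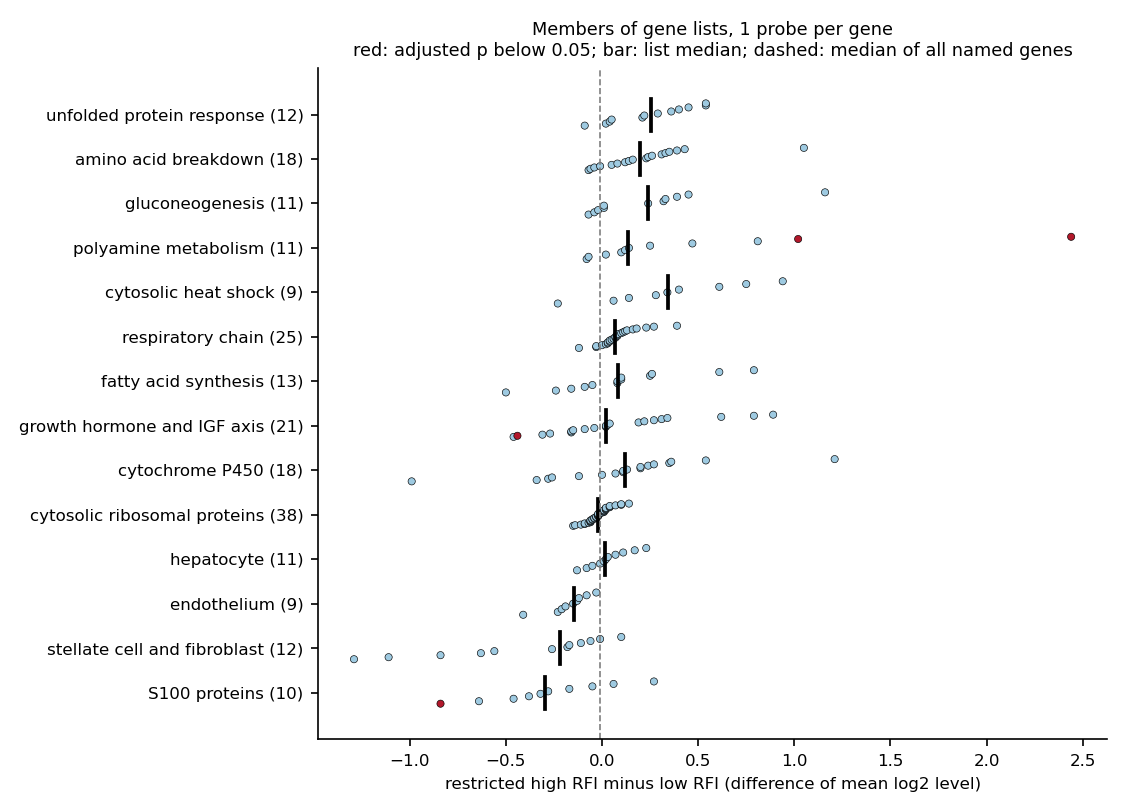
Difference of mean log2 level between restricted high RFI and low RFI pigs (x axis) for the members of 14 gene lists, 1 probe per gene, with the number measured in brackets. Bars mark list medians, from -0.298 for the S100 proteins to 0.342 for cytosolic heat shock, and the dashed line marks the median of all named genes, -0.009.

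All 11 hepatocyte markers measured were well above background in every low RFI and restricted pig, which fits the liver label. Albumin (ALB), SERPINA1 and TTR, secreted plasma proteins, differed by 0.01, -0.08 and -0.05, and 7 of the 11 were above 0 with a median of 0.016 (-0.053 on the first scan day). In bulk liver, fewer cells of a type and less RNA per cell cannot be told apart. Markers of stellate cells and fibroblasts were below 0 in 11 of 12, with a median of -0.22 and no call. Their mean deviation ranged from 0.03 to 0.48 over low RFI pigs and from -0.34 to 0.17 over restricted pigs. Of these, COL1A2 differed by -0.84 ± 0.21 (SE, limma adjusted p = 0.0779) and RGS5, also a marker of pericytes, by -1.29 ± 0.30 (adjusted p = 0.0606). All 9 endothelial markers were below 0, with a median of -0.147, but on the first scan day that median was 0.132. The smooth muscle and pericyte list (5 of 5 below 0, median -0.308), the neutrophil list (6 of 7, -0.318) and the mast cell list (4 of 4, -0.422) had no call either. KIT and MS4A2, surface receptors of mast cells, differed by -0.43 ± 0.18 and -0.47 ± 0.16 (adjusted p = 0.303 and 0.219). S100A4 moved in the same direction as these cell type lists, and their part in its fall was not tested. The Kupffer cell list had 5 of 6 above 0, with a median of 0.179 that was -0.001 on the second scan day.

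Pancreatic enzyme genes were measured in these liver samples. The acinar cell list had 3 of 4 below 0 and a median of -1.005, and none passed. CPA1, a carboxypeptidase, differed by -1.81 ± 0.46 (SE, limma adjusted p = 0.0781) and CELA2A, an elastase, by -1.72 ± 0.74 (adjusted p = 0.319). The list's mean deviation ranged from -0.37 to 1.27 in low RFI pigs and from -0.86 to 0.24 in restricted pigs. The list median was 0.014 on the first scan day alone, where the direction was not kept, and -0.58 on the second.

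Feeding level within the high line gave no call on the same probes. Between restricted and ad libitum high RFI pigs 0 of 28817 probes (0%) passed in limma, and 1526 (5.3%) had an unadjusted p below 0.05. Between ad libitum high and low RFI pigs 47 (0.163%) passed and 9.6% had an unadjusted p below 0.05. These comparisons share arrays with each other and with the one described here, so their values are given side by side and not compared. For UBD, the differences were -0.23 ± 0.22 within the high line and 1.73 ± 0.22 between the lines at free intake (SE). For NDUFAF3 they were -0.29 ± 0.09 and -0.14 ± 0.09, and for ZAR1L -0.42 ± 0.27 and -2.07 ± 0.27.

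Just outside the threshold were 5 named genes. ID2, an inhibitor of DNA-binding transcription factors, differed by 0.61 ± 0.14 (SE, limma adjusted p = 0.0511). PTDSS1, which makes phosphatidylserine, differed by -0.42 ± 0.09 (adjusted p = 0.0524). C1QTNF3, a secreted relative of adiponectin, EML4, a microtubule-binding protein, and MTDH, a membrane protein of the endoplasmic reticulum, differed by -0.97, -0.37 and 0.40, each at an adjusted p of 0.0606. MTDH was the one of these 5 whose groups did not overlap.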

How the data were processed

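Per the file headers, the deposited intensity values are the background-subtracted and detrended processed signal of 1-colour arrays of 45220 features, read by Feature Extraction 10.7.3.1. Log2 values of 27564 features, also deposited, equalled log2 processed signal minus the array median and served as an alternative; R 2.10.0 is listed in the submitters' processing notes. Control spots and outlier spots were left out. Levels are log2 processed signal minus the array's 75th percentile, with spots of a probe averaged. Probes were kept where well above background on 6 or more of 8 low or restricted pigs, which left 28817 of 43603.

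Group means were fitted to all 24 arrays with limma 3.58.1 in R 4.3.3, with Benjamini-Hochberg adjustment over the probes kept and a threshold of 0.05; the fit was checked on simulated data. The ad libitum high RFI arrays enter only the estimate of spread and values set side by side. Correlations between arrays were 0.970 to 0.991. The number of arrays limits the precision. The p-values set each group difference against the spread between these pigs and treat the pigs as independent. Nothing says how the pigs were related, so any kinship within a line is not allowed for.

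Names came from scanner output matched to RefSeq on Sscrofa11.1, used for names and gene order only: 12301 probes had 1 symbol, 29 several and 31273 none. Each list took 1 probe per gene, the brightest; a list's mean deviation is the mean over its genes of the level minus its mean. Named were up to 15 genes and 3 unnamed probes per direction past the threshold, the list members past it or with the 4 smallest p (fewer where the text needs fewer), 3 brightest cell markers and 5 genes just outside. The members and lists were chosen with earlier results of these data known. Other members of a list are named after their values were seen.

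Alternatives were normexp background correction (offset 50), quantile and median scaling, other filters, the 16 arrays alone, slide, scan day or pig number as a block, each scan day alone, slide 3 left out, array weights and each pig left out. Reading and plots used Python 3.11.15, pandas 2.3.3, numpy 2.4.6, the R package data.table (version 1.17.8) and matplotlib 3.10.9.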

Additional observations from a re-analysis of the deposited data

Results flagged for a closer look

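In 4 of 78 groups of 8 pigs examined across the named genes and unnamed probes, the highest or lowest pig stood apart from the rest by more than Dixon's 95% critical value for the gap over the range. Chance gives about 1 in 20 such groups. For OAZ3, low RFI pig 7 was at 0.23 while the other low RFI pigs lay between -2.86 and -2.02. For ARG1, low RFI pig 6 was at 6.68 while the others lay between 5.64 and 6.06. For KLF3, restricted pig 4 was at 0.20 against -1.48 to -0.89. For the unnamed probe A_72_P115846, low RFI pig 4 was at -0.76 against -2.75 to -2.05. Each of these pigs was the highest of the group with the lower mean, so leaving it out could only widen the difference. The differences were then 2.76 for OAZ3, 1.12 for ARG1, -1.5 for KLF3 and 2.46 for A_72_P115846. Each passed the threshold in limma, which is therefore no support for them.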

How the results depend on the processing

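The count of probes past the threshold was 79. It was 15 with normexp, 46 with no filter, 37 with the 16 arrays alone (17 higher, 20 lower), 39 and 10 on scan days 1 and 2 alone, and 23 without slide 3. Leaving out single pigs gave 37 to 148. It stayed within 1.5 times of 79 under quantile (77) or median scaling (82), filters over all 3 groups (68) or all 16 arrays (63), the deposited values (69), slide (53) or scan day (76) as a block and array weights (86). Normexp kept 12 of the 79 probes and gave a median difference of -0.099 over all probes (-0.006 otherwise). It changed the sign of HPSE (-0.0661), ESRP1 (-0.18) and SYK (-0.18), each smaller in size than its SE. No other named gene changed direction under any alternative run. Same-numbered pigs did not deviate together (correlations of -0.1747 to 0.1292), so the numbers do not pair them; with a replicate block 105 probes passed, 60 of them among the 79, and 15 of the 20 named genes (not ARG1, ESRP1, CCDC37, FAM212B or STAT5A). Dim probes (HPSE, ESRP1, SYK, ZAR1L) are limited by signal over background in 1 group.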

Other observations

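Some of the largest differences did not pass the threshold. Of 13 probes that differed by more than 2.5 on the log2 scale in either direction, 11 were not called in limma; they were picked after their values were seen. Of these, 3 are described as glutathione S-transferases, which join glutathione to reactive compounds. At A_72_P302044, 7 of 8 low RFI pigs lay at 5.82 or above and low RFI pig 3 at -1.99. Of the restricted pigs, pigs 1, 4 and 8 lay at 6.53, 6.65 and 5.92, and the other 5 between -5.19 and -3.73. Of the ad libitum high RFI pigs, 3 of 8 were above 5.82 as well. The difference was -5.81 ± 2.38 (SE, limma adjusted p = 0.289). Probes A_72_P497485 and A_72_P517950, which share 46 bases, were above 0 in exactly the same pigs, with differences of -5.91 ± 2.35 and -5.07 ± 2.1.

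The EST probe A_72_P182911 lay near background in 4 of 8 low RFI pigs and was well above it in all 8 restricted and all 8 ad libitum high RFI pigs. Low RFI pigs 2, 3, 7 and 8 lay between -7.51 and -7.12, whereas pigs 1, 4, 5 and 6 lay between -0.14 and 0.85 and the restricted pigs between -0.08 and 0.87. Its difference was 4.09 ± 1.11 (SE, limma adjusted p = 0.101). A_72_P291719, another EST probe, was at -0.17 in low RFI pig 4 and at -4.90 or below in the other 7, while 6 of 8 restricted pigs lay at -1.14 or above. It differed by 3.52 ± 1.17 (adjusted p = 0.192).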
